A study of Mus musculus with 6 samples.

Results

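The cyclins and cyclin-dependent kinase (CDK) inhibitors that set the pace of the cell cycle were followed in fetal mouse hypothalamic neural stem and progenitor cells (NSC/NPCs) after prenatal high estradiol exposure. Members were chosen by name and matched by gene symbol in the deposited table. They are 10 of 22048 genes: 5 G1 cyclins (Ccnd1, Ccnd2, Ccnd3, Ccne1 and Ccne2), 2 S/G2 cyclins (Ccna2 and Ccnb1) and 3 CDK inhibitors (Cdkn1b, Cdkn1c and Cdkn2c). RNA-Seq covered 3 high estradiol (HE) and 3 control (NC) samples of male C57BL/6 fetuses. The dams of both groups were 8 weeks old and dosed by gavage between E5.5 and E11.5. HE dams were given estradiol valerate at 100 μg/kg/d. NC dams were given corn oil, the solvent, although the sample labels call the NC samples untreated. Hypothalamic cells were taken at E14.5, grown in both groups as floating spheres with 10 ng/mL EGF and 10 ng/mL bFGF, and harvested at first passage, so that every value was measured in cultured cells under growth factors and several days after the last dose. Each sample held cells of 2 mice, and neither the labels nor the methods say how litters were spread over the samples, so the p-values measure only the spread between these samples.

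D-type cyclins bind CDK4 and CDK6 early in G1 in response to growth factors and start the phosphorylation of the retinoblastoma protein, which frees E2F factors. E-type cyclins then activate CDK2 at entry into S phase, cyclin A2 acts through S and G2, and cyclin B1 with CDK1 drives mitosis. The Cip/Kip inhibitors p27 (Cdkn1b) and p57 (Cdkn1c) hold CDK2 complexes in check and the INK4 inhibitor p18 (Cdkn2c) blocks CDK4 and CDK6. In the developing brain D-type cyclins support progenitor division, while p27 and p57 accompany cell cycle exit.

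In the HE samples both S/G2 cyclins and Ccne2 were higher, and Cdkn1b and the G1 cyclin Ccnd3 were lower, than in every NC sample. Of all tested genes 14.8% were higher and 17.9% lower without overlap in this way. The ratio of HE to NC means was 1.48 for Ccna2, 1.80 for Ccnb1, 1.82 for Ccne2, 0.65 for Cdkn1b and 0.85 for Ccnd3. Ccnd1, Ccnd2 and Ccne1 had higher means in HE, but these differences were 0.59 to 0.71 (log2) with all samples and 0.19 to 0.31 without 1 library, HE3. Cdkn1c was higher than in NC in HE1 and HE2 and far lower in HE3. None of the 10 differences passed the adjusted threshold, so the values below describe these 6 samples.

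Levels are RPKM, read counts scaled to gene length in kilobases and to the reads that each sample had on genes. Differences are in log2(RPKM + 0.1), a scale on which scarce mRNAs show too small a change, and were tested with limma together with all other genes that had enough reads. All 10 members passed the filter on low reads, which left 13952 genes. Adjusted p-values are Benjamini-Hochberg values over those 13952 genes, and the threshold was an adjusted p of 0.05 with a log2 fold change of at least 1 either way. No gene passed it in this limma fit: percent called was 0, and the smallest adjusted p was 0.148. The paper used DESeq2 with the same cutoffs and did report differentially expressed mRNAs in both directions. At an unadjusted p under 0.05 in limma were 2858 genes, or 20.5%, made up of 8.68% with higher and 11.8% with lower values in HE.

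Reads counted on genes ran from 16078675 in HE3 to 19137059 in NC2. HE3 stood apart from the other libraries: its Euclidean distance to each of them over the tested genes was 77.7 to 107, against 38.7 to 67.6 among the other 5. Those 5 did not split cleanly by group, since NC3 was nearer to HE1 (43.4) than to NC1 (46.3) or NC2 (57.3). HE3 held the lowest value of the 6 in 44.4% of tested genes and the highest in 24.5%. Its median-of-ratios size factor was 0.792 against 1 to 1.08. Scaling by those factors moved the median log2 difference of all genes by 0.06. Member differences are therefore given with and without HE3. The labelled cell type, neural stem cells, was checked against marker lists, and all 10 progenitor markers had reads in every sample. Sox2 was at 172 to 209 RPKM outside HE3 and 97.3 RPKM in it and Nes at 154 to 247 RPKM, while Pax6, Hes5, Prom1 and Msi1 were under 8 RPKM. Glial genes were as abundant, with Gfap at 195 to 754 RPKM, Aldh1l1 at 482 to 698 RPKM and Olig1 at 134 to 312 RPKM. Of the neuronal genes Gap43 was at 66.3 to 202 RPKM, Tubb3 at 19.1 to 46.6 RPKM and Map2 at 16.6 to 26.4 RPKM, whereas 4 of 10, Dcx and Rbfox3 among them, stayed under 1 RPKM.

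All 10 members are protein-coding genes, and their places are given here in GRCm38.p6 with the identifier of the deposited table. Ccnd1 (ENSMUSG00000070348) lies at chr7:144929931-144939831, Ccnd2 (ENSMUSG00000000184) at chr6:127125162-127152188 and Ccnd3 (ENSMUSG00000034165) at chr17:47505051-47599689. Ccne1 (ENSMUSG00000002068) lies at chr7:38097984-38107490 and Ccne2 (ENSMUSG00000028212) at chr4:11190433-11204779. Ccna2 (ENSMUSG00000027715) is at chr3:36564865-36573038 and Ccnb1 (ENSMUSG00000041431) at chr13:100778739-100786486. The inhibitor genes Cdkn1b (ENSMUSG00000003031), Cdkn1c (ENSMUSG00000037664) and Cdkn2c (ENSMUSG00000028551) are at chr6:134920401-134925525, chr7:143458339-143461059 and chr4:109660876-109666756.

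Promoter sequence from RefSeq (GRCm38.p6, the 250 bases before each annotated start) was found for 5 members, with 7 entries in all: Ccnd3, Ccne1, Ccnb1, Cdkn1b and Cdkn2c. Ccnd1, Ccnd2, Ccne2, Ccna2 and Cdkn1c are named only. Shown are a G1 cyclin, the S/G2 cyclin with the largest difference and the inhibitor that was lower in every HE sample, each 5′ to 3′ on the strand of its gene. They come from chr7:38107491-38107740 (minus strand) for Ccne1, chr13:100786487-100786736 (minus strand) for Ccnb1 and chr6:134920151-134920400 (plus strand) for Cdkn1b. Capitals mark matches on either strand to words of known promoter elements. For the E2F core these were TTCCCGC with its variant forms TTCGCGC as well as TTGCCGC and further TTGGCGC, for the CHR element they were TTTGAA along with TTCGAA, for the CCAAT box the word in its name, and for the GC box GGGCGG.
Ccne1: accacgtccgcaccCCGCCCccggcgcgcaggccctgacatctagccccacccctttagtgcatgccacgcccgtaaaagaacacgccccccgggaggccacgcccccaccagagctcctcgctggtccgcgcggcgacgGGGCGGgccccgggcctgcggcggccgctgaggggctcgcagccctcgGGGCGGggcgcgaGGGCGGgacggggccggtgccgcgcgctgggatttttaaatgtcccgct
Ccnb1: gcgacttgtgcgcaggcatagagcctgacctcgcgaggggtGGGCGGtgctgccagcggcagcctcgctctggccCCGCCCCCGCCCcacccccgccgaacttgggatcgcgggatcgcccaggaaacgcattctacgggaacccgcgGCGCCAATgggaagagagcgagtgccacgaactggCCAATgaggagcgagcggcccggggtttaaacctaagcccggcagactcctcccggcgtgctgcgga
Cdkn1b: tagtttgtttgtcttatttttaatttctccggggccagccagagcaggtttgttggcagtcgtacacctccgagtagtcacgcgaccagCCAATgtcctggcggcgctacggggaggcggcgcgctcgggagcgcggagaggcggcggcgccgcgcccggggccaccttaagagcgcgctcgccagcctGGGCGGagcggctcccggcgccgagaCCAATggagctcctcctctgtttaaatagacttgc

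The Ccne1 window held 4 GC boxes and no other match. The Ccnb1 window held 2 CCAAT boxes, 3 GC boxes and 1 E2F core word, TTGGCGC on the opposite strand at 102 to 96 bases before the start, which overlaps the CCAAT box at 99 to 95. The Cdkn1b window held 2 CCAAT boxes, at 161 to 157 and 35 to 31 bases before the start, and 1 GC box. Of the other entries, 1 of the 2 of Cdkn2c held an E2F core word, TTCCCGC, 25 to 19 bases before the start. No CHR word was found in any of the 7 entries. Among all 32851 promoters of the table, 7.89% held an E2F core word, 17.1% a CHR word, 33.8% a CCAAT box and 32.7% a GC box within the same 250 bases. These matches describe letters and do not show that a factor binds.

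In NC cells the order of mean levels was Ccnd1, Cdkn1b, Ccnd2, Cdkn2c, Ccna2, Ccnb1, Cdkn1c, Ccne1, Ccnd3 and Ccne2. Ccnd1 stood first at 187 RPKM ± 31.6 (SD, n = 3) and Ccne2 last at 2.17 RPKM ± 0.319. NC values overlapped between Ccnd2 and Cdkn2c, between Ccna2 and Ccnb1, and between Cdkn1c, Ccne1 and Ccnd3, so the order within these groups is not beyond the spread of the samples. The other neighbours did not overlap. In HE cells the mean of Cdkn1b, at 27.3 RPKM, was below those of Ccnd2, Cdkn2c, Ccnb1 and Ccna2. Most of this rested on HE3. Over HE1 and HE2 alone the Cdkn1b mean was 33.2 RPKM. That was below Ccnd2 (39.0 RPKM) but above Cdkn2c (31.2 RPKM), Ccnb1 (29.0 RPKM) and Ccna2 (27.2 RPKM).

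**Figure D1:**
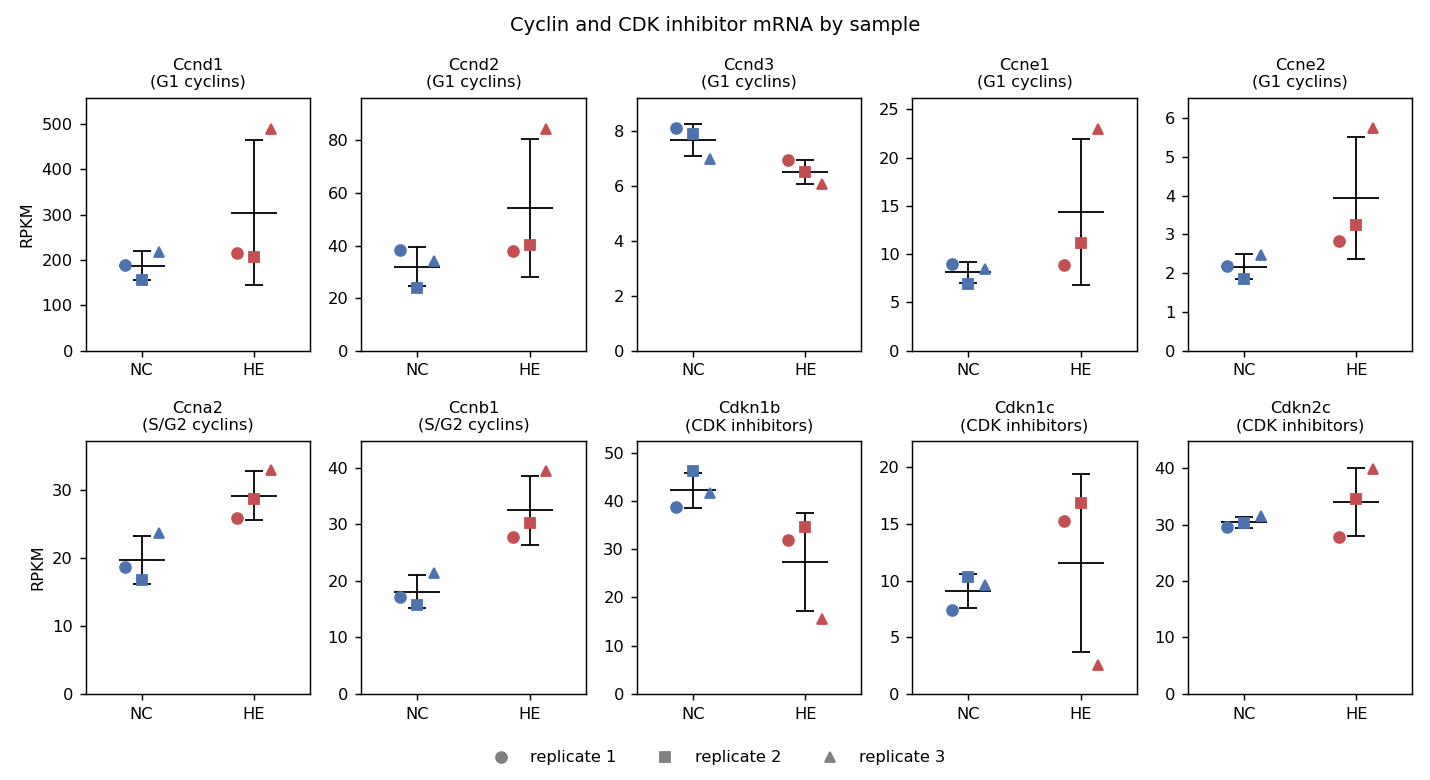
RPKM (vertical axes, each from 0) of the 10 members in the 3 NC (blue) and 3 HE (red) samples. Circles, squares and triangles mark replicates 1, 2 and 3, the horizontal line is the mean and the bars are 1 SD. Ccne2, Ccna2 and Ccnb1 are higher and Ccnd3 and Cdkn1b lower in all HE samples than in all NC samples, and the triangle of HE3 is the highest or lowest point in every panel.

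Among the D-type cyclins, Ccnd1 was by far the most abundant. It measured 189, 155 and 218 RPKM in NC1 to NC3 and 216, 207 and 489 RPKM in HE1 to HE3. HE1 and HE2 lay within the NC range and HE3 was 2.32 times their mean, so the groups overlapped. The difference was 0.59 (log2; SE 0.34; 95% interval -0.20 to 1.39), with a limma adjusted p of 0.324. Without HE3 it was 0.19 (SE 0.16, adjusted p = 0.517).

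Ccnd2, the D-type cyclin of many neural precursors, followed the same course at a lower level. Its values were 38.2, 23.7 and 34.2 RPKM in NC1 to NC3 and 37.9, 40.1 and 84.4 RPKM in HE1 to HE3. HE1 was just under NC1, NC2 was the lowest sample, and HE3 was 2.17 times the mean of HE1 and HE2. The log2 difference was 0.68 (SE 0.33, limma adjusted p = 0.274) with all samples and 0.31 (SE 0.20, adjusted p = 0.413) without HE3.

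Ccnd3, the third D-type cyclin, moved the other way. It was at 8.11, 7.91 and 7.0 RPKM in NC1 to NC3 and at 6.96, 6.52 and 6.07 RPKM in HE1 to HE3. All HE values were below all NC values, but the gap between NC3 and HE1 was small. HE minus NC was -0.23 (log2, SE 0.13, 95% interval -0.53 to 0.06, limma adjusted p = 0.308), and it was -0.18 without HE3. As a share of summed D-type cyclin RPKM, Ccnd3 was 3.45, 4.25 and 2.70% in NC1 to NC3 and 2.67, 2.58 and 1.05% in HE1 to HE3. Ccnd1 kept 80.3 to 84.4% of that sum in all 6 samples, with overlapping groups.

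Of the E-type cyclins, Ccne1 measured 9.01, 6.87 and 8.47 RPKM in NC1 to NC3 and 8.90, 11.2 and 23.0 RPKM in HE1 to HE3. HE1 was within the NC range, HE2 above it and HE3 at 2.29 times the mean of the other HE samples. On the log2 scale HE minus NC was 0.71 (SE 0.33, limma adjusted p = 0.267) and 0.31 (SE 0.16, adjusted p = 0.328) without HE3.

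Ccne2, which also activates CDK2, was the lowest member, at 123 to 322 reads per sample. It stood at 2.18, 1.84 and 2.48 RPKM in NC1 to NC3 and at 2.84, 3.23 and 5.73 RPKM in HE1 to HE3. Every HE sample was above every NC sample. Ccne2 differed by 0.78 (log2, SE 0.28, 95% interval 0.12 to 1.43), with a limma unadjusted p of 0.0262 and an adjusted p of 0.211. Without HE3 the difference was 0.48 (SE 0.17, unadjusted p = 0.0282), so this member was above NC in HE1 and HE2 as well. Ccne1 made up 75.8 to 80.5% of summed E-type RPKM, with no separation of the groups.

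The S/G2 cyclins gave more even differences over the HE samples than Ccnd1, Ccnd2, Ccne1 and Ccne2. Ccna2, which serves CDK2 in S phase and CDK1 in G2, measured 18.6, 16.7 and 23.6 RPKM in NC1 to NC3 and 25.8, 28.6 and 32.9 RPKM in HE1 to HE3. Every HE value was above every NC value and HE3 was not far from the other HE samples. The NC samples averaged 19.6 RPKM ± 3.54 (SD, n = 3) and the HE samples 29.1 RPKM ± 3.58, for a ratio of 1.48. HE minus NC was 0.57 (log2, SE 0.16, limma unadjusted p = 0.00864, adjusted p = 0.195) and 0.48 (SE 0.15, adjusted p = 0.187) without HE3.

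Ccnb1, the mitotic cyclin, had the smallest p of the members. Its values were 17.1, 15.8 and 21.3 RPKM in NC1 to NC3 and 27.8, 30.2 and 39.4 RPKM in HE1 to HE3. The lowest HE sample was well above the highest NC sample. The NC mean was 18.1 RPKM ± 2.88, against 32.5 RPKM ± 6.14 with HE. The log2 difference was 0.84 (SE 0.17, 95% interval 0.43 to 1.24), with a limma unadjusted p of 0.00178, rank 116 of the 13952 tested genes, and an adjusted p of 0.195. Without HE3 it was 0.69 (SE 0.14, unadjusted p = 0.00214, adjusted p = 0.133).

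The ratio of Ccnb1 to Ccna2 RPKM also separated the groups, at 0.921, 0.942 and 0.903 in NC1 to NC3 and 1.08, 1.06 and 1.20 in HE1 to HE3. Ccna2 was the more abundant of the pair in NC and Ccnb1 in HE. Their summed level was 35.8, 32.5 and 44.9 RPKM in NC1 to NC3 and 53.6, 58.7 and 72.3 RPKM in HE1 to HE3. These sums and ratios were not tested, since the members were chosen with results of these data known.

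The inhibitors did not share a direction. Cdkn1b, which encodes p27, was at 38.8, 46.1 and 41.7 RPKM in NC1 to NC3 and at 31.9, 34.5 and 15.6 RPKM in HE1 to HE3. All HE samples were below all NC samples, and HE3 was at 0.47 times the mean of HE1 and HE2. The NC mean was 42.2 RPKM ± 3.66, against 27.3 RPKM ± 10.3 with HE, for a ratio of 0.65. On the log2 scale HE minus NC was -0.70 (SE 0.29, 95% interval -1.39 to -0.02, limma unadjusted p = 0.0448, adjusted p = 0.237). Without HE3 it was -0.34, with a smaller SE of 0.10 (unadjusted p = 0.0142, adjusted p = 0.174).

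Cdkn1c, the imprinted gene that encodes p57, was the member that differed most between the HE libraries. It measured 7.40, 10.3 and 9.63 RPKM in NC1 to NC3, 15.3 and 16.9 RPKM in HE1 and HE2, and 2.53 RPKM in HE3. HE1 and HE2 were above every NC sample and HE3 below every other sample, at 0.16 times the mean of HE1 and HE2. HE3 held 83 reads on this gene, a counting error of 11%. With all samples the log2 difference was -0.05 (SE 0.67, 95% interval -1.62 to 1.53, limma adjusted p = 0.968). Without HE3 it was 0.83 (SE 0.16, 95% interval 0.45 to 1.21, unadjusted p = 0.00148, adjusted p = 0.131). No direction can be given for Cdkn1c over the 3 HE samples.

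Cdkn2c, which encodes p18, overlapped between the groups. Its values were 29.5, 30.2 and 31.5 RPKM in NC1 to NC3 and 27.8, 34.6 and 39.8 RPKM in HE1 to HE3. HE1 was the lowest sample and HE3 the highest. Cdkn2c differed by 0.15 (log2, SE 0.14, 95% interval -0.19 to 0.49, limma adjusted p = 0.537) and 0.03 without HE3.

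The makeup of summed inhibitor mRNA differed accordingly. Cdkn1b was 51.3, 53.2 and 50.3% of summed inhibitor RPKM in NC1 to NC3 and 42.5, 40.1 and 26.9% in HE1 to HE3, so that all HE samples lay below all NC samples. Cdkn1c was 9.77, 11.9 and 11.6% of the sum in NC1 to NC3, 20.4 and 19.7% in HE1 and HE2 and 4.37% in HE3. The ratio of Cdkn1c to Cdkn1b was 0.191 to 0.231 in NC, 0.480 and 0.491 in HE1 and HE2, and 0.163 in HE3. HE1 and HE2 therefore held more p57 mRNA per p27 mRNA than any NC sample, and HE3 held less.

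**Figure D2:**
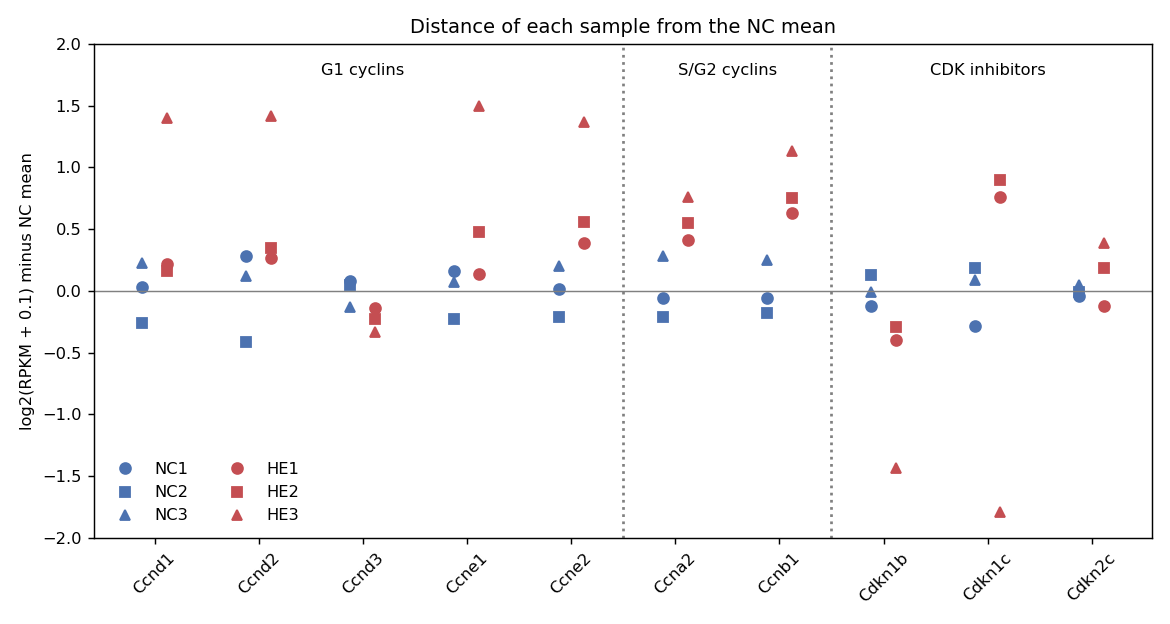
Distance of each sample from the NC mean in log2(RPKM + 0.1) (vertical axis) for each member (horizontal axis), with NC in blue, HE in red and circles, squares and triangles for replicates 1, 2 and 3. HE1 and HE2 lie near each other in all 3 classes, and HE3 lies above them by 0.90 to 1.21 in Ccnd1, Ccnd2, Ccne1 and Ccne2 and differs from them by -2.62 in Cdkn1c.

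Read by class, the S/G2 cyclins differed from NC in all HE samples and the G1 cyclins mainly in HE3. The mean distance of the S/G2 cyclins from their NC means, in log2(RPKM + 0.1), was 0.52, 0.65 and 0.94 in HE1 to HE3 and -0.20 to 0.26 in NC. That of the G1 cyclins was 0.18, 0.26 and 1.07 in HE1 to HE3 and -0.21 to 0.11 in NC. That of the inhibitors was 0.08, 0.27 and -0.94 in HE1 to HE3 and -0.15 to 0.10 in NC. The class differences between HE and NC were 0.70, 0.50 and -0.20 for S/G2 cyclins, G1 cyclins and inhibitors, and 0.58, 0.22 and 0.17 without HE3, so the inhibitor class had no direction that held with and without this library.

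Summed S/G2 cyclin RPKM over summed G1 cyclin RPKM was 0.145, 0.167 and 0.166 in NC1 to NC3, 0.197 and 0.219 in HE1 and HE2, and 0.119 in HE3. Summed inhibitor over summed G1 cyclin RPKM was 0.307, 0.444 and 0.307 in NC1 to NC3, 0.276 and 0.321 in HE1 and HE2, and 0.0952 in HE3. In both ratios HE3 was below all other samples. In bulk RNA a change in the number of cells that express a gene and a change in RNA per cell cannot be told apart, and most of these mRNAs also vary with cell cycle phase.

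**Figure D3:**
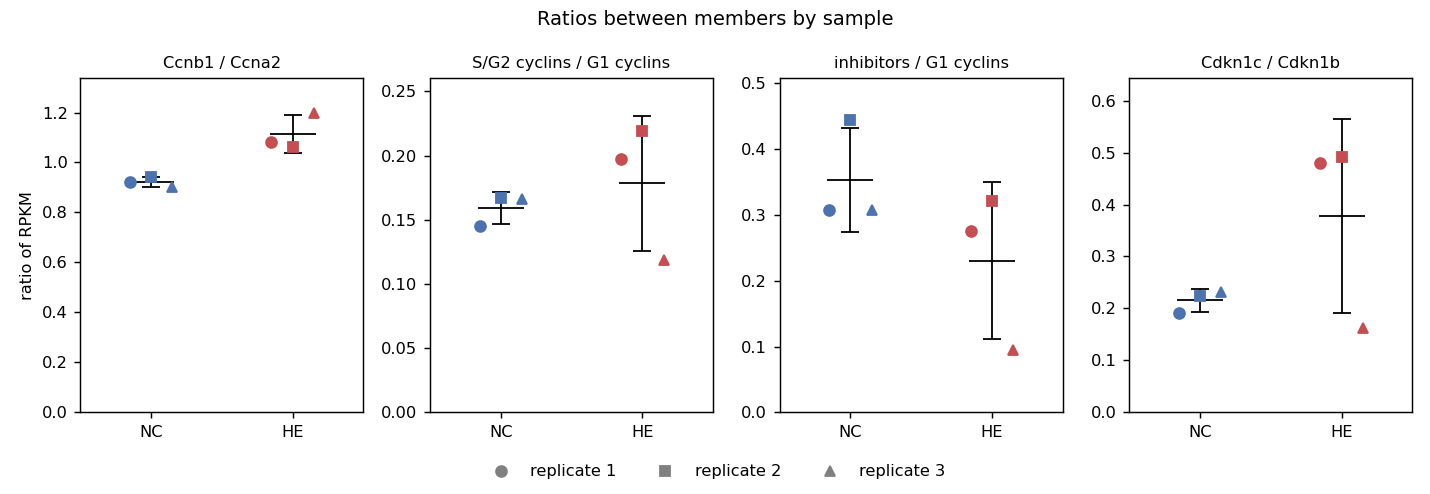
Ratios of RPKM between members (vertical axes, from 0) in NC (blue) and HE (red), with the mean and 1 SD; circles, squares and triangles are replicates 1, 2 and 3. Ccnb1 over Ccna2 is 0.903 to 0.942 in NC and 1.06 to 1.20 in HE, while in the other 3 ratios the point of HE3 lies below all others.

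Over the 10 members, 7 were higher and 3 lower in HE, with a median log2 difference of 0.58 against -0.06 over all tested genes. At an unadjusted p under 0.05 stood 3 members that were higher (Ccne2, Ccna2 and Ccnb1) and 1 that was lower (Cdkn1b), beside 8.68% and 11.8% of all tested genes. The groups did not overlap in 3 higher and 2 lower members, beside 14.8% and 17.9% of tested genes (32.7% in all). Without HE3, 8 were higher and 2 lower with a median of 0.31, and 4 higher members (Cdkn1c being added) and 1 lower had an unadjusted p under 0.05, beside 9.35% and 10.5% of genes (19.9% in all). In that comparison 4 higher and 2 lower members did not overlap, beside 20.6% and 20.1% of genes (40.7% in all). The members share the cell cycle, so they are not independent of each other.

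**Figure D4:**
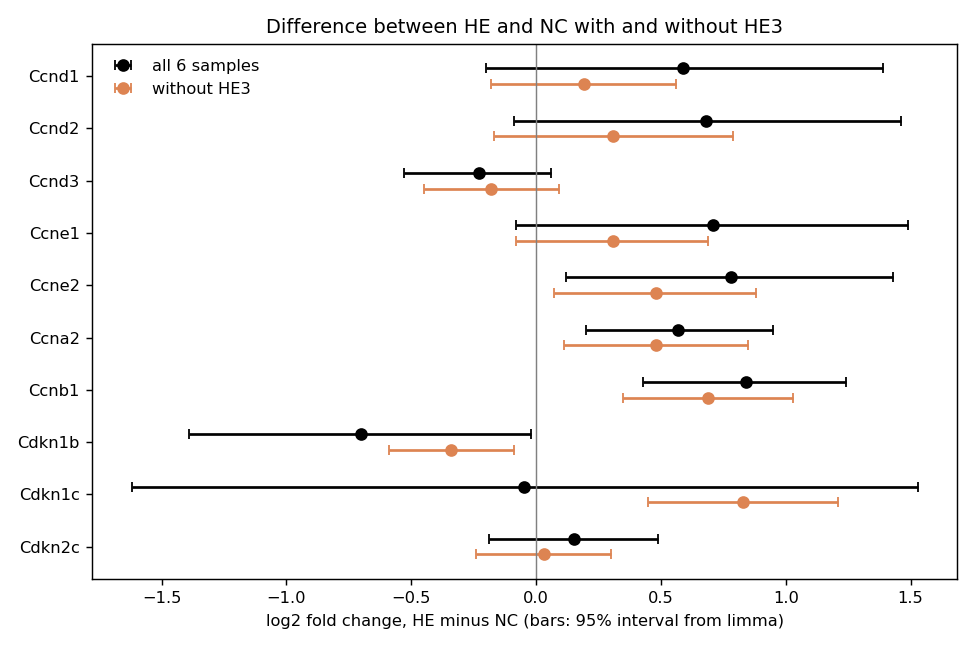
Log2 fold change of HE against NC (horizontal axis; log2(RPKM + 0.1)) for each member, with 95% intervals from limma, for all 6 samples (black) and without HE3 (orange). The intervals of Ccne2, Ccna2, Ccnb1 and Cdkn1b leave out 0 in both, and Cdkn1c moves from -0.05 to 0.83 with a far shorter interval.

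HE3 was the highest of the 6 samples for 7 members and the lowest for the other 3. Its distance from the mean of HE1 and HE2 was 1.21 for Ccnd1, 1.11 for Ccnd2 and 1.20 for Ccne1 (log2), above that of at least 99% of tested genes. For Cdkn1b it was -1.09, with 8.38% of tested genes further down, and for Cdkn1c it was -2.62, with 0.366% further down. The median over tested genes was -0.16. NC2 was the lowest sample for 6 of the members.

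Cell type markers also moved with the groups or with HE3. Of 10 progenitor markers 8 were lower in HE, Nes and Pax6 among them at only -0.02 (log2). Without overlap were 4 of these, beside 17.9% of all tested genes. The 10 summed to 2908 to 3606 RPKM in NC and 2857 to 4546 RPKM in HE, with 4546 in HE3. Most of this sum came from Vim and Fabp7. All 6 ependymal markers were lower, with sums of 46.9 to 70.9 RPKM in NC, 25.0 to 53.0 RPKM in HE and 25.0 RPKM in HE3. Astrocyte markers were lower in 4 of 6, and summed to 1472 to 1873 RPKM in NC and 1065 to 1502 RPKM in HE, with HE3 the lowest. Neuron markers were lower in 6 of 10. The other 4 (Map2, Elavl4, Snap25 and Gap43) were higher without overlap, beside 14.8% of all tested genes. The neuron markers summed to 120 to 154 RPKM in NC and 138 to 272 RPKM in HE. Oligodendrocyte lineage markers, lower in 6 of 8, summed to 291 to 321 RPKM in NC and 315 to 515 RPKM in HE. In both of these sums HE3 was the highest sample, and the part of these cell types in the member differences was not tested.

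Among markers of cells from outside the neural lineage, the mesenchymal genes had the highest levels. Microglial markers summed to 1.08 to 1.5 RPKM in NC and 2.74 to 8.42 RPKM in HE, with C1qa at no read in NC1 and NC2. Of the 8 microglial genes 5 were tested and 4 of these were higher. C1qa, C1qb, C1qc and Tmem119 were higher without overlap, beside 14.8% of all tested genes, but C1qa and C1qc did not pass the filter. Csf1r, Cx3cr1, P2ry12 and Aif1 overlapped between the groups. Endothelial markers summed to 2.47 to 3.43 RPKM in NC and 4.15 to 5.25 RPKM in HE, with 2 of 3 tested genes higher. Mesenchymal markers summed to 21.7 to 71.1 RPKM in NC and 61.8 to 141 RPKM in HE, and 5 of 5 tested genes were higher. The mesenchymal gene Col3a1 was at 12.2 to 43.3 RPKM in NC and 92.7, 71.6 and 45.7 RPKM in HE1 to HE3. Red blood cell markers, with Hba-a2 at no read in any sample, summed to 0.514 to 0.696 RPKM in NC. In HE they summed to 0.454 to 4.42 RPKM, with the 4.42 RPKM in HE3. These sums were not tested against the members either.

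The kinases that the cyclins activate were all higher in mean level, though none passed the adjusted threshold. Differences of these and the following genes are again HE minus NC in log2(RPKM + 0.1). Counts of listed genes at an unadjusted limma p under 0.05 stand beside 8.68% of all tested genes higher and 11.8% lower. Without HE3 these shares were 9.35% and 10.5%. Cdk1, the partner of cyclin B1, measured 26.1, 25.1 and 30.5 RPKM in NC1 to NC3 and 34.6, 35.7 and 54.8 RPKM in HE1 to HE3. HE minus NC was 0.58 (log2, SE 0.19, limma adjusted p = 0.198), and 0.37 without HE3. Cdk4, the partner of the D-type cyclins, measured 99.8, 89.5 and 95.9 RPKM in NC1 to NC3 and 114, 114 and 142 RPKM in HE1 to HE3 (0.37 on the log2 scale, SE 0.13, limma adjusted p = 0.205), and differed by 0.26 without HE3. Cdk2 differed by 0.22, and by 0.08 without HE3. Cdk6 differed by 0.38, and by 0.48 without HE3, at only 0.594 to 1.58 RPKM with overlapping groups. Among the 3 genes of the CDK-activating kinase 1 had an unadjusted p under 0.05, Ccnh (0.48, limma adjusted p = 0.195, and 0.38 without HE3).

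Of 4 further cell cycle cyclins 3 were tested and 2 had an unadjusted p under 0.05, both higher. Ccnb2, the second B-type cyclin, differed by 0.46 (SE 0.14, limma adjusted p = 0.195), and by 0.41 without HE3, with HE above NC in all samples. Ccna1, the germ cell cyclin A, differed by -0.05, and by 0.30 without HE3, so that its sign came from HE3, at 0.407 to 1.06 RPKM with overlapping groups. Among 7 genes of CDK phosphorylation and the Cks subunits 3 had an unadjusted p under 0.05, all higher, led by Cks2 (0.55, SE 0.14, limma adjusted p = 0.195, and 0.43 without HE3). Of 10 proliferation markers all had higher means in HE and 8 had an unadjusted p under 0.05, or 7 without HE3. Higher at that p were 8.68% of all tested genes, or 9.35% without HE3. Mki67 was at 21.1, 15.9 and 23.2 RPKM in NC1 to NC3 and at 28.8, 31.7 and 36.7 RPKM in HE1 to HE3, a log2 difference of 0.70 (SE 0.17, limma adjusted p = 0.195) and of 0.61 without HE3. Pcna, the sliding clamp of DNA replication, differed by 0.81 (SE 0.23, limma adjusted p = 0.195) and by 0.56 without HE3.

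Other CDK inhibitors were as mixed as the member inhibitors, with 3 of 5 higher. Cdkn2a, whose locus encodes p16 and p19ARF from overlapping transcripts, was at 10.8, 13.1 and 11.6 RPKM in NC1 to NC3 and at 15.2, 17.8 and 26.1 RPKM in HE1 to HE3. HE minus NC was 0.70 (log2, SE 0.21, limma unadjusted p = 0.0109, adjusted p = 0.195), and 0.48 without HE3, and it was the 1 gene of the list with an unadjusted p under 0.05. Cdkn1a, which encodes p21, overlapped between the groups, with means of 58.4 RPKM ± 3.72 (NC) and 56.8 RPKM ± 5.63 (HE). The Cdkn1a difference was -0.04, and 0.04 without HE3. Cdkn2b (p15) differed by -0.43 and Cdkn2d (p19INK4d) by 0.09, with limma adjusted p of 0.316 and 0.574, and by -0.30 and 0.05 without HE3.

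Among 20 genes of the pocket proteins, E2F factors and the DREAM complex, which act between the G1 cyclins and the S/G2 genes, 15 were higher and 5 lower with a median of 0.12. At an unadjusted p under 0.05 were 2 higher and 1 lower, beside 8.68% and 11.8% of all tested genes. The smallest p was that of Rbbp4 (0.31, limma adjusted p = 0.213, and 0.23 without HE3). The lower gene was Rbl2, which encodes the pocket protein p130 of resting cells, at 7.35, 8.26 and 7.30 RPKM in NC1 to NC3 and 6.45, 6.18 and 4.62 RPKM in HE1 to HE3 (-0.42, SE 0.16, limma adjusted p = 0.225, and -0.27 without HE3). Rbl1 (p107) differed by 0.31 and E2f1 by -0.31, and without HE3 by 0.28 and -0.21, with no unadjusted p under 0.05. Rb1 differed by -0.29, a value that rested on HE3, since it was 0.02 without that library.

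Of 13 genes for ubiquitin ligases that turn over cyclins and inhibitors 1 had an unadjusted p under 0.05, beside 20.5% of all tested genes. This was Skp2, the F-box protein that targets p27 for degradation, at 2.06, 1.76 and 1.99 RPKM in NC1 to NC3 and 2.58, 2.68 and 3.18 RPKM in HE1 to HE3 (0.51, SE 0.16, limma adjusted p = 0.195, and 0.43 without HE3). Every HE sample was above every NC sample. Fbxw7, which targets cyclin E, differed by -0.15, and by -0.04 without HE3. Of 6 factors known to act on cyclin or inhibitor genes 5 were lower, with a median of -0.33, and of -0.14 without HE3. With all samples Stat3 alone had an unadjusted p under 0.05 (-0.43, limma adjusted p = 0.217), which it missed without HE3 (-0.31, limma unadjusted p = 0.0602). Foxo3, an activator of Cdkn1b transcription, was named after its values were seen: it was at 37.8, 37.5 and 32.6 RPKM in NC1 to NC3 and 26.7, 31.8 and 11.6 RPKM in HE1 to HE3, a difference of -0.74 (SE 0.35, limma adjusted p = 0.266). Without HE3 the Foxo3 difference was -0.30 (SE 0.12, limma unadjusted p = 0.0386, adjusted p = 0.234). Over the 71 tested genes of all these lists 51 were higher and 20 lower, and the median was 0.16. At an unadjusted p under 0.05 were 20 higher and 2 lower, beside 8.68% and 11.8% of all tested genes.

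**Figure D5:**
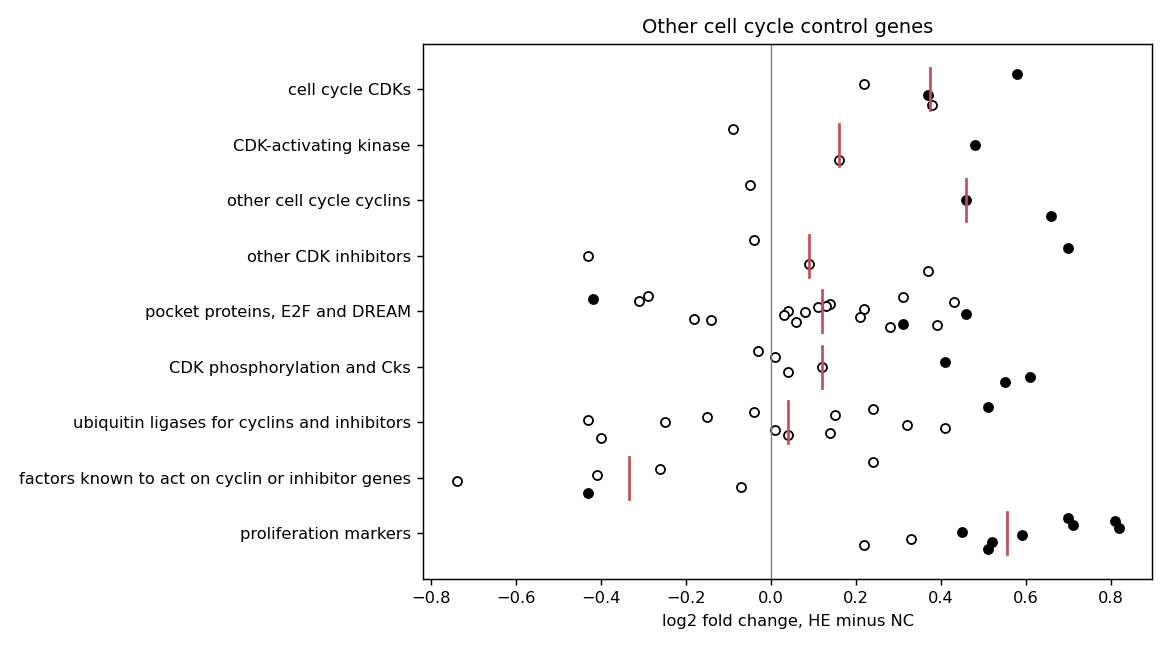
Log2 fold change of HE against NC (horizontal axis; log2(RPKM + 0.1)) for each tested gene of 9 lists of other cell cycle control genes (rows). Each circle is a gene, filled where the unadjusted limma p is under 0.05, and the red bar is the median of the list, which is highest for the proliferation markers at 0.55 and lowest for the factors acting on cyclin or inhibitor genes at -0.33.

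Likeness of pattern was measured as the root mean square difference between centred log2(RPKM + 0.1) values over the 6 samples, among 11514 genes with a mean of at least 1 RPKM. Within the members the closest pair was Ccnd2 and Ccne1 at 0.12, followed by Ccna2 and Ccnb1 and by Ccne1 and Ccne2, both at 0.14. The farthest pair was Ccne1 and Cdkn1c at 1.35. Outside the members the nearest genes were Stmn3 for Ccnd1 (0.10), Hist1h4d for Ccnd2 (0.063), Ctns for Ccnd3 (0.021), Exo1 for Ccne1 (0.052) and Asf1b for Ccne2 (0.050). For the other members they were Kif15 for Ccna2 (0.040), Cxadr for Ccnb1 (0.076), Wipf2 for Cdkn1b (0.063), Dusp1 for Cdkn1c (0.175) and Aars for Cdkn2c (0.026). Ccnd3 and Cdkn2c, which varied little, had 501 and 235 genes within 0.1, whereas Cdkn1c had 0. All these distances come from the same 6 libraries.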

How the data were processed

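RNA-Seq of 3 HE and 3 NC samples of first-passage NSC/NPCs was analysed from the table the authors deposited. The authors filtered reads, aligned them to the mouse genome (the submitters' processing notes name CASAVA 1.7, TopHat2 and mm10) and counted reads per gene, and the deposited table holds those read counts and RPKM, which the authors scaled to gene length and to the reads counted in each sample. RPKM differed from that formula by at most 4.99e-07. The counting tool, the annotation and whether counting used strand are not given in the sources used here, so overlapping transcripts may share reads. Methods and labels differ in the Illumina instrument they name. The authors' count model was DESeq2. Counts in the table are written with commas between digits, were recorded under the unit other, and served for the filter, the depth and an alternative with voom.

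HE was compared with NC by limma 3.58.1 (R 4.3.3) on log2(RPKM + 0.1), using its trended prior and no term other than group. Tested genes had, in 3 or more samples, a rate worth 10 reads in the median library, and 15 or more reads over all 6 samples. Symbols were found for 21781 identifiers. The fit was tested on simulated data. At this depth 1 read on a 1 kilobase gene is 0.0523 to 0.0622 RPKM, and counting error at the lowest sample was 0.847% for Ccnd1 and 9.02% for Ccne2; these cover counting error only.

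Members and lists were chosen with earlier results of these data known. Named genes were the 10 members, a set of cell cycle genes taken by identity, the gene of smallest p in each list, and the nearest gene in pattern to each member. Same-numbered HE and NC samples had correlations of their deviations from the group means of 0.156, 0.0869 and 0.0603. Differently numbered samples had -0.0764 to -0.00114. The same-numbered values were the higher ones but small, which does not settle whether the numbers are pairs. The main fit did not take them as pairs. The alternatives were a pseudocount of 1, median-of-ratios scaling, all genes with 1 read, genes with 10 reads in each sample, a replicate block, voom on read counts, sample weights, robust empirical Bayes and leaving out each sample. An exact permutation test of 3 against 3 samples cannot go below a p of 0.1 (20 assignments) and was not used. Protein sequences were not used here.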

Additional observations from a re-analysis of the deposited data

How the results depend on the processing

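Of 140 alternative values of the member differences 132 kept their direction and their side of an adjusted p of 0.05. Cdkn1c changed sign in 6, counting an estimate of 0.00. It was 0.84 with sample weights, which gave HE3 a weight of 0.158, and 0.83 without HE3. In the others it stayed near 0, as did the main value of -0.05 (SE 0.67). These were 0.01 with a pseudocount of 1, 0.01 with median-of-ratios scaling, 0.05 without NC2 and 0.00 without NC3. Over all samples left out Cdkn1c ran from -0.52 to 0.83. Sample weights also took Ccna2 (0.52, limma adjusted p = 0.0477) and Ccnb1 (0.73, limma adjusted p = 0.0297) past an adjusted p of 0.05, but neither reached a log2 fold change of 1. The count of genes past both cutoffs was 0 except with sample weights (268, 100 higher and 168 lower) and without NC3 (103, 7 higher and 96 lower; 0 to 103 over samples left out). The count at an unadjusted p under 0.05, 2858, was 1342 without NC1 and 1638 without NC2, with a range of 1342 to 3107 over samples left out, and 4117 with sample weights. Of the members 4 passed that p, and 2 to 6 with a sample left out: 2 without NC1 or NC2 (Ccna2 and Ccnb1; 9.62% and 11.7% of all genes) and 6 without HE1 (22.3% of genes). Cdkn1b missed it without NC1, NC2 or NC3 (limma unadjusted p = 0.0703, 0.115 and 0.0866). With the replicate number as a block 7 members passed it, 6 of them higher, Ccnd1, Ccnd2 and Ccne1 being added, beside 22.8% of all genes (8.75% higher). The check of pairing did not settle the use of this block, since each sample correlated best with its own number, but only weakly. The block changed no adjusted call. Non-overlapping members numbered 5, and 5 to 8 with a sample left out, 8 without HE1, where the share of all genes was 46.1% against 32.7% with all samples. The causes were not tested. The class differences kept their sign except that of the inhibitors, -0.20 and 0.17 without HE3, and that of the G1 cyclins was 0.50 and 0.22 without it. Depth limits Ccne2 and Cdkn1c most.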
